A study of Homo sapiens with 2 samples.

Results

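The genes described here are 10 genes of the lung alveolar epithelial lineage: NKX2-1, FOXA1, FOXA2 and GATA6, which encode transcription factors, SFTPB, SFTPC, NAPSA, ABCA3 and LPCAT1, which belong to surfactant production, and HOPX, a regulator known from alveolar type I cells. They were taken by name, and every probe set that the platform annotation assigns to one of them and to no other gene was kept, which gave 24 probe sets of the 54675 on the array. The RNA came from CL1-0, an established human lung adenocarcinoma line whose cell type the labels give as alveolar type II. One array held cells exposed to an antibody against FSTL1, a secreted glycoprotein, for 6 h, and 1 array held cells labelled with the same antibody at 0 h. The labels add that the cells used had been stably transduced and kept under puromycin for a fortnight, which applies to both arrays, and the vector is not given in the sources used here. With 1 array per time there is no spread between replicates, so no difference below has a significance test, and time in culture and the antibody cannot be told apart.

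Alveolar type II cells make surfactant, a film of phospholipid and small hydrophobic proteins that lowers surface tension in the air spaces. NKX2-1 (also called TTF-1) sets lung epithelial identity together with the pioneer factors FOXA1 and FOXA2 and with GATA6, and it binds the promoters of the surfactant protein genes. SFTPB and SFTPC encode the hydrophobic surfactant proteins, NAPSA encodes the protease napsin A that helps to process the SFTPB precursor, ABCA3 pumps phospholipid into lamellar bodies, and LPCAT1 reacylates lysophosphatidylcholine. NKX2-1 and napsin A are stains that pathologists use to recognise an adenocarcinoma as arising in the lung. LPCAT1 is the member least tied to lung, since many tissues and tumours express it.

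Levels are probe set intensities on the deposited linear scale, and the percentile of a value is its rank among the 54613 probe sets of the same array that are not array controls. The array medians were 44.9 (6 h) and 45.8 (0 h), the 90th percentile was 906 and 872, and the highest value was 24926 and 25595. A floor was set at 45.4, the median of both arrays together, as an assumed background. Probe sets differ in how well they bind their transcript, so a percentile places a signal on its array and does not rank transcript abundance between genes. In RNA from a whole culture, fewer cells carrying a transcript and less of it per cell cannot be told apart.

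Of the 24 probe sets, 13 lay above the floor on both arrays, 1 on a single array and 10 on neither. Of the 10 genes, 8 had a brightest probe set that passed the floor on 1 array or both, against 64.1% of the 19775 genes named on the array. One gene of the 10, LPCAT1, was above the 90th percentile on both arrays, against 17.8% of all genes. The brightest sets of the 10 genes had a median percentile of 61.4 at 6 h and 62.1 at 0 h, against 63.9 and 64.1 over all named genes. In all, 22 of the 24 probe sets had an intensity under 200 on both arrays. Most of each array was also under 200, since its upper quartile began at 217 for 6 h and 209 for 0 h. How much of the array was under 200 both times was not counted, so 22 of 24 is no result about these genes.

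**Figure D1:**
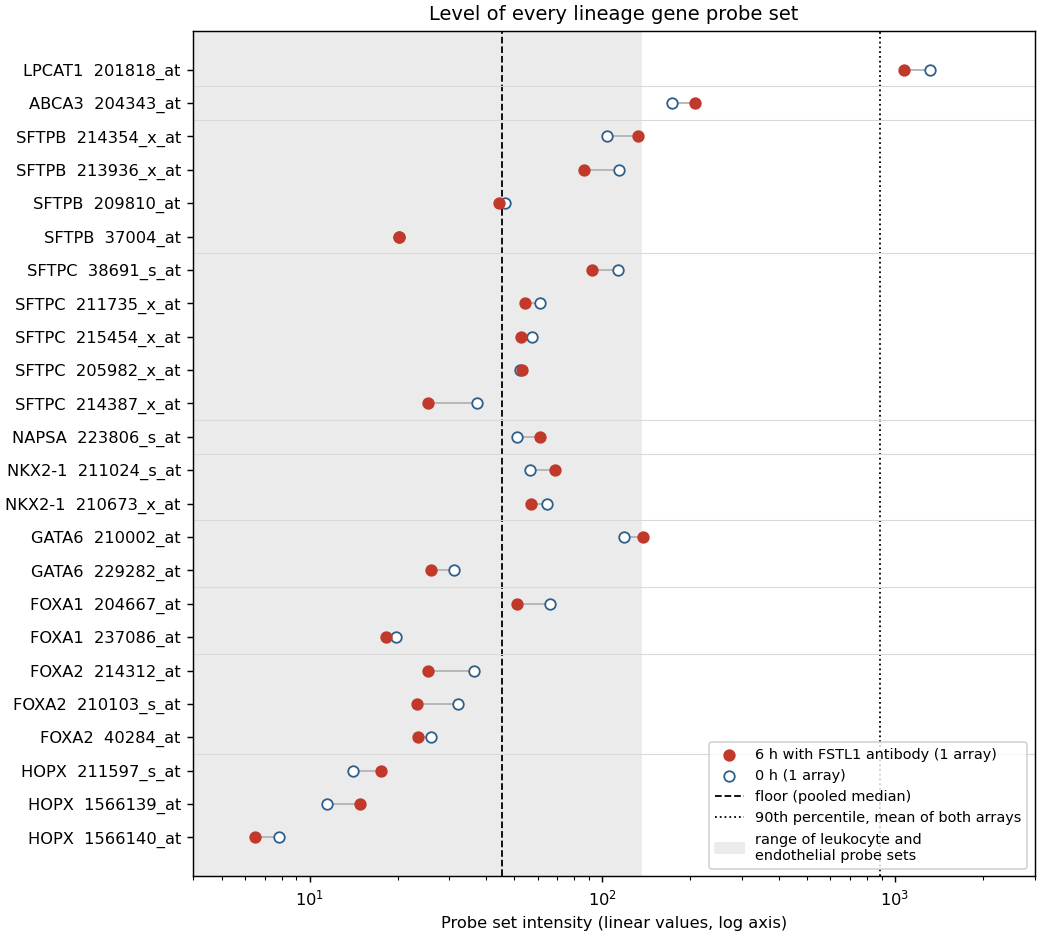
Intensity (log axis) of each of the 24 probe sets on the array at 6 h (filled) and at 0 h (open), 1 array each, with the floor of 45.4 dashed, the 90th percentile dotted and the range reached by leukocyte and endothelial probe sets shaded. LPCAT1 stands alone beyond the 90th percentile, at 1073 and 1314, ABCA3 lies beyond the shaded range on both arrays, and the FOXA2 and HOPX probe sets all lie under the floor.

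NKX2-1, the homeodomain factor that specifies lung and thyroid epithelium, had 2 probe sets just above the floor. The set 211024_s_at read 68.6 at 6 h and 56.7 at 0 h, the 59.0 and 55.1 percentiles. The set 210673_x_at read 57.1 at 6 h and 64.8 at 0 h. Both sets were far under the 90th percentile, and they were ordered oppositely between the times. The antisense transcript NKX2-1-AS1, which lies beside NKX2-1 and is not one of the 10 genes, was under the floor at 16.8 and 18.7.

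FOXA1 and FOXA2 are forkhead pioneer factors that open chromatin in endoderm and act with NKX2-1. FOXA1 read 51.2 at 6 h and 66.1 at 0 h on 204667_at, and 18.3 and 19.7 on its other set, 237086_at. FOXA2 was under the floor on both arrays with all 3 of its probe sets, which read 23.2 to 25.4 at 6 h and 26.0 to 36.3 at 0 h. All 5 forkhead probe sets were thus at or below the 58.3 percentile, and each had the lower value at 6 h. For FOXA2 and for 237086_at both values are under the assumed background, so these have no direction here.

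GATA6, a zinc finger factor of foregut and lung epithelium, had a split signal. The set 210002_at read 137 at 6 h and 118 at 0 h, near the 69.4 and 67.8 percentiles, whereas 229282_at read 26.0 and 31.1, under the floor. The antisense transcript GATA6-AS1, likewise not one of the 10, was at 33.3 and 38.7. The level of GATA6 therefore rests on 1 of its 2 probe sets.

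The surfactant proteins are the defining products of type II cells. SFTPB had 4 probe sets that spanned the floor. The brightest, 214354_x_at, read 133 at 6 h and 104 at 0 h, and the next, 213936_x_at, read 86.4 and 114. The other 2 were dimmer: 209810_at read 44.4 at 6 h and 46.5 at 0 h, beside the array median, and 37004_at read 20.1 on each array. The ending _x_at marks probe sets in which some probes also match other sequences, and the SFTPB signal above the floor on both arrays came from such sets alone.

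SFTPC, the surfactant protein made only by type II cells in the adult lung, had 5 probe sets. The brightest, 38691_s_at, read 92.3 at 6 h and 113 at 0 h, the 63.8 and 67.2 percentiles. The other 4, all _x_at sets, read 25.3 to 54.4 at 6 h and 37.2 to 61.0 at 0 h. In type II cells of the lung this gene is among the most abundant transcripts, and no probe set of it here passed the 67.2 percentile. Lung tissue was not analysed here, so these levels have no comparison with cells known to express the gene.

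NAPSA, with 1 probe set (223806_s_at), read 61.0 at 6 h and 51.1 at 0 h, the 56.7 and 52.7 percentiles. HOPX, a homeodomain-only protein that marks type I cells in mouse lung, was under the floor with all 3 probe sets, the highest at 17.6 and 14.0 and the lowest, 1566140_at, at 6.50 and 7.83. The 20 probe sets of SFTPB, SFTPC, NAPSA, NKX2-1, FOXA1, FOXA2 and HOPX, 7 genes grouped after their values were seen, lay between the 2.51 and 69.0 percentiles at 6 h and between the 5.97 and 67.2 percentiles at 0 h.

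The lipid genes gave the clearest signals. LPCAT1 read 1073 at 6 h and 1314 at 0 h on its only probe set, 201818_at, the 91.4 and 93.1 percentiles. ABCA3, whose loss causes surfactant deficiency in newborns, read 208 at 6 h and 173 at 0 h on 204343_at, the 74.5 and 72.8 percentiles. These were the 2 genes of the 10 whose signal was high enough to exceed every probe set of the leukocyte and endothelial marker lists on both arrays. With CD79A left out of those lists, SFTPB, SFTPC and GATA6 did so as well, which makes 5 genes. The share of all named genes that pass either cut was not computed. Over all named genes the median intensity was 93.2 at 6 h and 92.7 at 0 h. That is above the highest PECAM1 values (54.5 and 73.5), which set the second cut, so the counts of 2 and 5 are no result about these genes.

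Those marker lists show how bright a probe set can be for a gene of another cell lineage. Their 23 probe sets, of 11 genes such as PTPRC, CD14, CDH5 and VWF, had a median of 19.7 at 6 h and 22.8 at 0 h. Of the 11 genes 2 passed the floor, against 64.1% of all named genes. CD79A, a B cell receptor component, read 118 at 6 h and 136 at 0 h on 1 probe set, and 42.1 and 43.3 on its other. The upper end of the range thus rests on 1 probe set. PECAM1, an endothelial adhesion protein, reached 54.5 and 73.5. For the 24 lineage probe sets the medians were 52.0 (6 h) and 51.7 (0 h). The highest SFTPB and GATA6 values at 6 h, 133 and 137, exceeded that of CD79A, but at 0 h both genes were under it. The type II marker ABCA3 (208 and 173, the 74.5 and 72.8 percentiles) exceeded every probe set of the marker lists on both arrays. The other type II markers SFTPC, SFTPB and NAPSA and the regulator NKX2-1 gave no bright signal to go with the labelled cell type. Their 12 probe sets lay between the 29.9 and 69.0 percentiles at 6 h and between the 29.2 and 67.2 percentiles at 0 h. At 0 h all 12 were under the CD79A value, while SFTPB (114) and SFTPC (113) exceeded PECAM1. No detection calls were used here, so absence and a low level of these transcripts cannot be told apart.

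The stretch before the transcription start is shown for SFTPB and NKX2-1, which were dim, and for ABCA3 and LPCAT1, which were the brightest, as the sequence context of these 4 genes. RefSeq promoters of build GRCh38.p14 matched 8 of the 10 genes (12 start sites), and the 250 bases before the start are printed 5′ to 3′, with capitals marking the letters TGTTTA or TGTTTG (forkhead core) and CAAGTG or CTCAAG (NKX2 core) on either strand. For SFTPB and NKX2-1 the second listed start site is used.
SFTPB (chr2:85668200-85668449, minus strand): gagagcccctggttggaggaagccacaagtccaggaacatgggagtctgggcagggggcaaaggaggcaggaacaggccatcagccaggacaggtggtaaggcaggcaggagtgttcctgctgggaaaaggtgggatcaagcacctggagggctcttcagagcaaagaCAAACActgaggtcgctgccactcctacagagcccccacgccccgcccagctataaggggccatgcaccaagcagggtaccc
NKX2-1 (chr14:36519557-36519806, minus strand): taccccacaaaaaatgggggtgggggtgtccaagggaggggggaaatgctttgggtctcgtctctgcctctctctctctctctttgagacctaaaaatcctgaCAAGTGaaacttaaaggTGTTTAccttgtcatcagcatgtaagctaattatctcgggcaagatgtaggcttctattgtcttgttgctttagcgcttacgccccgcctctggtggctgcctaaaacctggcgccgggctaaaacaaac
ABCA3 (chr16:2340729-2340978, minus strand): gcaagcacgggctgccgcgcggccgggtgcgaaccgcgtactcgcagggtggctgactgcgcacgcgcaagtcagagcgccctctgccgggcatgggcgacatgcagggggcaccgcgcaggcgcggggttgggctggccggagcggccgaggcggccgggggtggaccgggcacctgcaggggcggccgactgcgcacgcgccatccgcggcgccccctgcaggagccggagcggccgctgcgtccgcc
LPCAT1 (chr5:1523961-1524210, minus strand): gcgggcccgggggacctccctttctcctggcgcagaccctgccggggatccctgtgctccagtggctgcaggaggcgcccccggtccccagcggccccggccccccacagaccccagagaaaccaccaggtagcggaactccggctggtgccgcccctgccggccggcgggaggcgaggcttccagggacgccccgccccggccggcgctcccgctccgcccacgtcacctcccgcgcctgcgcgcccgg

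The SFTPB stretch held 1 forkhead match, 82 to 77 bases before the start, and 3 CpG pairs. The NKX2-1 stretch held 1 match of each kind, the NKX2 core at 147 to 142 and the forkhead core at 130 to 125 bases before the start, and 7 CpG pairs. ABCA3 and LPCAT1 held neither motif and had 38 and 28 CpG pairs, where the median over 35114 promoters was 11. Neither CpG content nor the motifs followed brightness throughout. The first NKX2-1 start site, with a forkhead match and no NKX2 match, had 18 CpG pairs, and FOXA1, also dim, had 26. The first SFTPB start site held neither motif and had 1 CpG pair. GATA6, which read 137 and 118 on its brighter set, held 2 forkhead matches and had 16 CpG pairs. Over all promoters of this length 21.6% held a forkhead core and 18.3% an NKX2 core. Among the 12 start sites of the 8 genes, 6 held the forkhead core and 3 the NKX2 core, including 2 NKX2 matches and 1 forkhead match before FOXA1. A match is only a run of letters, and binding was not measured. The search took these exact letters only, so a stretch without a match may still hold a binding site.

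The comparison between the times asks whether exposure to the antibody goes with other transcript levels. Differences are log2 of the 6 h value minus log2 of the 0 h value, with values under 45.4 set to it, and a gene is represented by its brightest probe set. None of the 8 measured genes (0 of 8) differed by 1.5-fold, against 0.932% of the 12667 measured genes, of which 0.75% were higher and 0.182% lower. Of the 8, 5 were higher and 3 lower at 6 h, against 54.3% and 45.7% of all measured genes. The median difference of the 8 was 0.24, against 0.017 over all measured genes. The median was 0.0054 when each gene was given the median of its measured probe sets, and it was -0.036 over the 5 genes that kept a measured set without the _x_at and _s_at sets. That -0.036 is the value of the SFTPB set 209810_at, which was under the floor at 6 h (44.4), so it is only a bound.

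Among the regulators, NKX2-1 was higher by 0.28 on its brighter set and had -0.18 on the other. FOXA1 had the largest negative difference of the 8, -0.37, and its 6 h value of 51.2 was little above the floor. GATA6 was at 0.22. Among the surfactant genes, SFTPB was at 0.35 on its brightest set and -0.39 on the next, 2 probe sets of similar brightness with opposite signs. SFTPC was at -0.30, with its other measured sets at -0.17, -0.12 and 0.02. NAPSA and ABCA3 were each at 0.26 and LPCAT1 was at -0.29.

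The sole measure of error is how far the probe sets of a gene disagree, and such sets are not replicates. Over 6122 genes with at least 2 measured sets its SD was 0.16, and with the measured genes in 4 equal classes of brightness it was 0.19 in the dimmest and 0.14 in the brightest. All 3 of the lineage genes with several measured sets, NKX2-1, SFTPB and SFTPC, had sets on both sides of 0, so their direction is not settled. For SFTPC the only set above 0 was at 0.02. The share of the 6122 genes with sets on both sides of 0 was not counted, so 3 of 3 is no result about these genes. In the dimmest class (intensity 45.4 to 108), which holds NKX2-1, SFTPC, NAPSA and FOXA1, the central 95% of genes lay between -0.44 and 0.48. In the second class (108 to 362), which holds SFTPB, ABCA3 and GATA6, it lay between -0.34 and 0.48. By their brightest sets these 7 genes lay inside those ranges.

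LPCAT1 lay outside the range of its class. In the brightest class (intensity 1046 and above) the central 95% of genes lay between -0.24 and 0.33, and LPCAT1, at -0.29 or 1.22-fold lower at 6 h, lay below it. By construction 5% of genes lie outside such a range, so 1 of 8 is no result about these genes. Its value was -0.34 to -0.29 over the 8 alternatives tried. It has a single probe set, so no second set bears on it. The median absolute difference was 0.28 over the 8 lineage genes and 0.11 over all measured genes. It was 0.14 for all genes of the dimmest class, 0.13 for those of the second and 0.080 for those of the brightest. The dimmest class includes genes set to the floor on 1 array, which makes its differences smaller. The brightest sets of NKX2-1, SFTPC, NAPSA and FOXA1 passed the floor on both arrays.

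**Figure D2:**
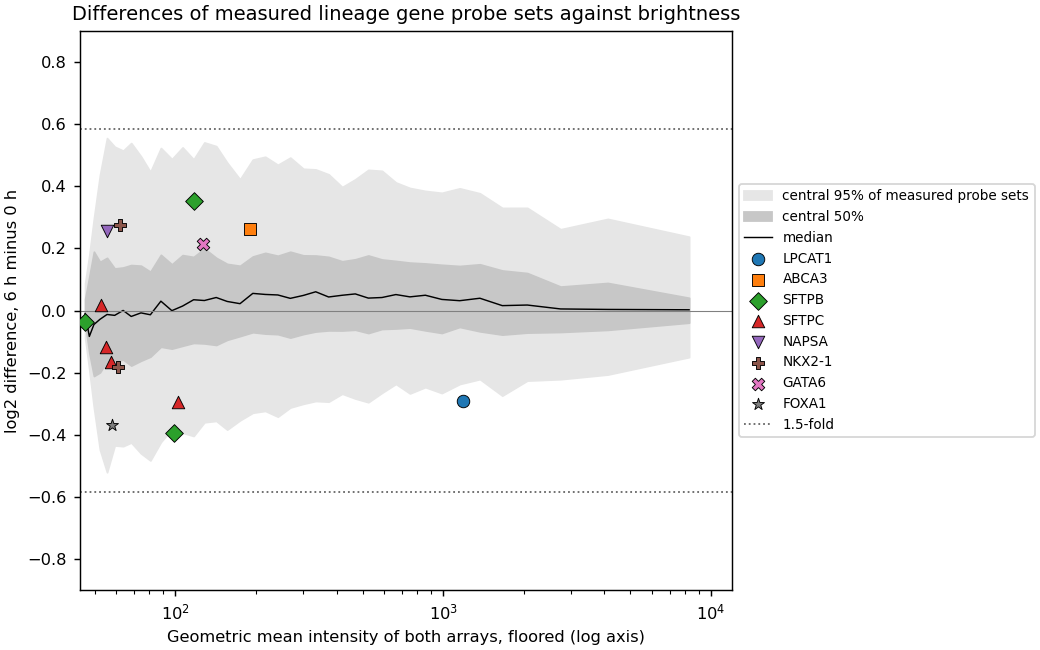
The log2 difference (6 h minus 0 h) of each measured lineage probe set against its geometric mean intensity on a log axis, over bands that hold the central 95% and 50% of all measured probe sets, with 1.5-fold dotted. The 2 bright SFTPB sets lie at 0.35 and -0.39, LPCAT1 (-0.29) and the lower of these SFTPB sets lie under the outer band, and no point reaches 1.5-fold.

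**Figure D3:**
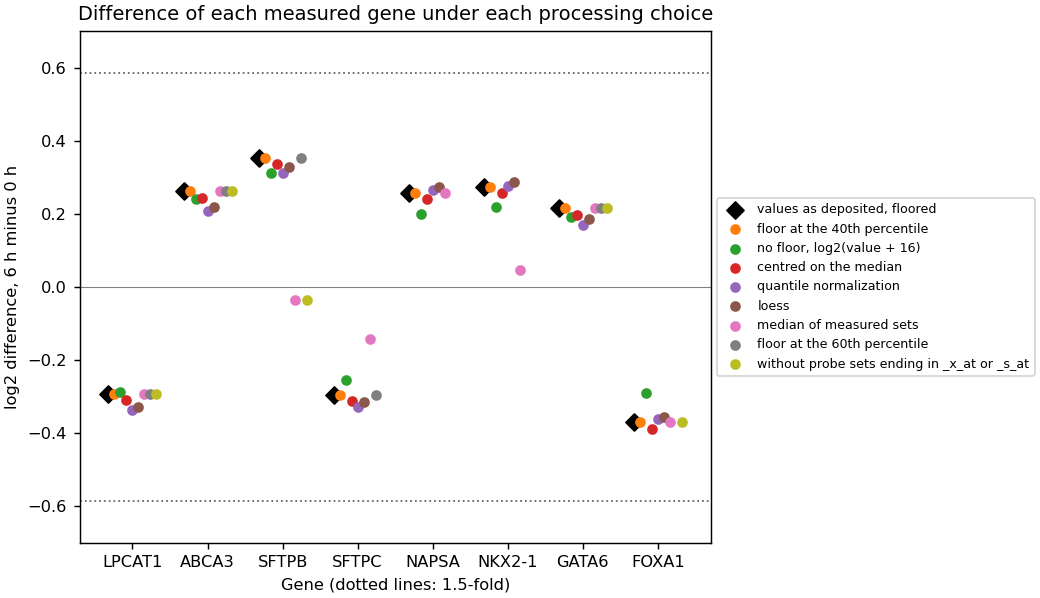
The log2 difference (6 h minus 0 h) of each of the 8 measured genes under each processing choice, with the values as deposited and floored as black diamonds. SFTPB runs between 0.35 and -0.036 depending on the probe sets used, the -0.036 being only a bound, while LPCAT1 stays between -0.34 and -0.29.

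Related gene lists place the 10 genes in context, beside the 64.1% of all named genes that were measured. Of 13 other type II genes named on the array, 3 were measured: CTSH, a cathepsin that also processes SFTPB (420 at 6 h and 468 at 0 h), the mucin MUC1 (187 and 184) and PGC, a pepsinogen (76.8 and 86.7). The other 10, among them SFTPD (14.4 and 19.0), the lamellar body protein LAMP3 (24.4 and 22.2) and the phosphate transporter SLC34A2 (14.8 and 16.8), were under the floor. SFTPA1 and SFTPA2 have no probe set of their own in the annotation. Of 11 type I genes 3 were measured, with EMP2, a membrane protein present in many epithelia, at 1069 and 998, and with AGER (43.8 and 42.0), AQP5 (28.2 and 36.4) and CAV1 (16.5 and 15.3) under the floor. With values floored, 0 of these 6 measured genes reached 1.5-fold, against 0.932% of all measured genes. RTKN2, a marker of type I cells (59.1 at 6 h and 34.3 at 0 h), was under the floor at 0 h and has only a bound, at least 1.30-fold higher at 6 h.

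Genes of surfactant lipid synthesis and handling, which most dividing cells also use, were all measured (17 of 17, against 64.1% of all named genes). Their median percentile was 87.5 at 6 h and 87.6 at 0 h. PRDX6, a peroxiredoxin with phospholipase activity that acts on surfactant lipid, read 9856 and 10373, the fatty acid binding protein FABP5 7321 and 8119, and CHPT1, which makes phosphatidylcholine, 1007 and 1077. Of the 17, 8 were higher and 9 lower (54.3% and 45.7% of all measured genes), 0 were past 1.5-fold (0.932% of all), and the median difference was -0.053. Of 13 genes for surfactant protein processing and turnover, of which NAPSA is one, 10 were measured. They were led by the cathepsin CTSL (1155 and 1216), the ESCRT ATPase VPS4A (1113 and 1165) and AP3B1, a coat subunit (1012 and 953), and had a median difference of 0.010.

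**Figure D4:**
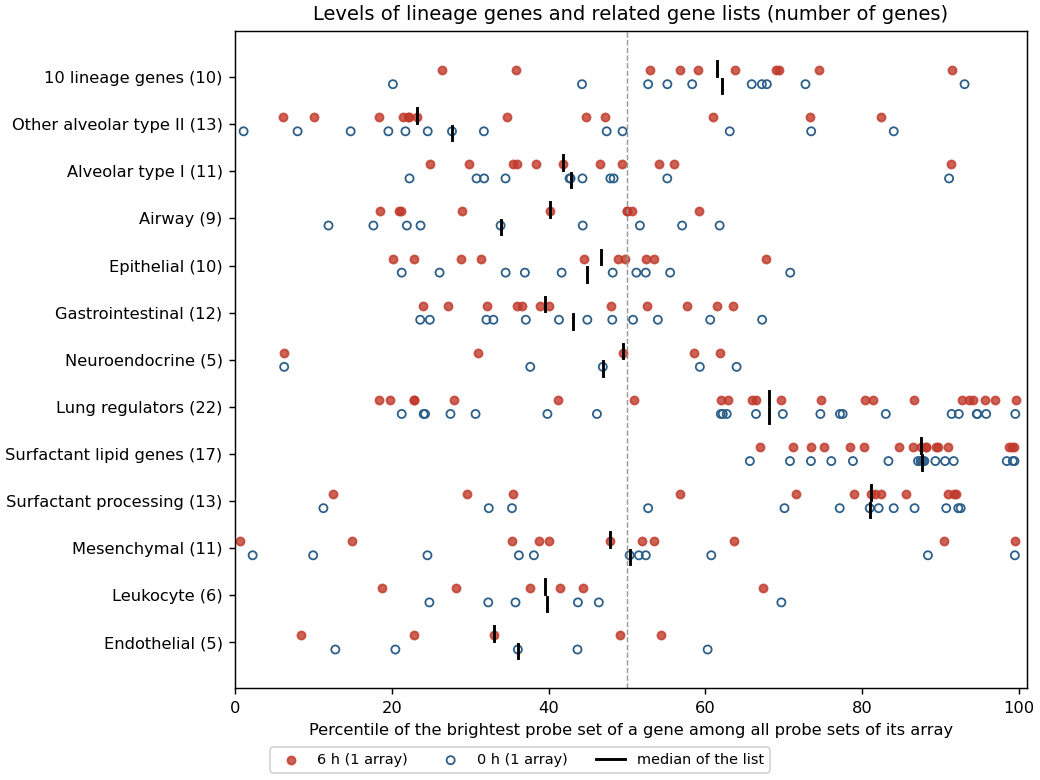
Percentile, among all probe sets of the same array, of the brightest probe set of every gene in each list, at 6 h (filled) and 0 h (open), 1 array each, with the median of the list as a bar. The 10 lineage genes have medians of 61.4 and 62.1, the other type II genes 23.3 and 27.7, and the surfactant lipid genes 87.5 and 87.6.

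General epithelial genes were also dim: 4 of 10 were measured, against 64.1% of all named genes. The brightest was KRT18 (121 at 6 h and 148 at 0 h), while the adhesion proteins EPCAM (13.6 and 17.9) and CDH1 (36.0 and 27.4 on its brighter set) lay under the floor. Of 11 mesenchymal genes 6 were measured, and the median intensity of this list was 41.1 at 6 h and 46.4 at 0 h, against 39.4 and 37.7 for the epithelial one. Among its members the filament VIM read 10693 and 10959, ZEB1, a repressor of epithelial genes, 955 and 726, and FN1 91.3 and 75.5 on its brightest set. CDH2 (52.2 and 46.4) and TWIST1 (48.8 and 48.7) were close to the floor and ZEB2, SNAI2, LUM, COL1A2 and PDGFRB under it.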

How the data were processed

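The deposited table holds 1 intensity per probe set and array on a linear scale, made by the authors with MAS5, an Affymetrix algorithm, per the submitters' processing notes, its version, parameters and scaling not given in the sources used here. The labels' protocols give column-purified total RNA and biotin-labelled cRNA. MAS5 subtracts local background and mismatch signal, so dim values are noisy. The mean without the top and bottom 2% was 262 at 6 h and 256 at 0 h.

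Probe sets were named by the platform annotation, with symbols updated through Entrez identifiers (41037 of 41091 single-gene sets matched RefSeq). The 1801 sets with several genes and 11721 with none were named for no gene, and 62 array controls were left out. Values under the pooled median were set to it, log2 was taken, and a gene was represented by the probe set with the highest mean. No model was fitted, since each time has 1 array. Percentiles, counts at 1.5-fold and medians are descriptions.

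Named genes are all 10 lineage genes and, from the other 12 lists, genes among the 4 brightest or the 2 with the largest differences. Some genes that meet this rule, such as MUC5B, GPAM, FASN, NEDD4L and KRT7, are not described. SFTPD, LAMP3, SLC34A2, AGER, AQP5, CAV1, EPCAM, CDH1, TWIST1, ZEB2 and SNAI2 were named outside that rule, as defining markers. So were LUM, COL1A2, PDGFRB, SOX9, GRHL2 and 4 leukocyte and endothelial genes. CTSE was named outside it for its bound, and all of these were named after values were seen. The genes and lists were chosen with earlier results of these data known. Alternatives were other floors, log2(value + 16) with no floor, centring, quantile normalization, loess (span 0.3), the median probe set, and leaving out _x_at and _s_at sets. The steps were tested on simulated 2-fold changes in genes brighter than ABCA3, so the test does not cover the dimmer lineage genes or smaller differences. Python 3.11.15, pandas 2.3.3 and statsmodels 0.14.6 were used.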

Additional observations from a re-analysis of the deposited data

How the results depend on the processing

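The count of 0 genes at 1.5-fold was the same under all 8 alternatives tried for it. Of the 10 genes, 8 were above the floor, against 9 when the 40th percentile was the floor, 5 when the 60th was and 5 without _x_at and _s_at probe sets. It was 2 when a gene had to exceed every leukocyte and endothelial probe set on both arrays and 5 when CD79A was left out of those lists, alternatives chosen after seeing the data. The share of all named genes that pass these cuts was not computed. The number of genes higher at 6 h was 5, against 3 under the 60th percentile floor and 2 without _x_at and _s_at sets, where fewer genes were measured. The median difference of 0.24 lay between 0.18 and 0.22 under other floors and scalings, was 0.0054 with the median of each gene's sets and turned to -0.036 without _x_at and _s_at sets. Of the 8 single differences 7 kept their sign under the 6 to 8 alternatives that gave them a value, and SFTPB (0.35) was at -0.036 under both choices of probe sets. This -0.036 is also the median difference without _x_at and _s_at sets. It comes from 209810_at, which was under the floor at 6 h, so it is only a bound. Most alternatives reuse the same brightest probe set, so a kept sign says little about direction. NKX2-1 was at 0.046 with the median of its sets, which were at 0.28 and -0.18. NKX2-1, SFTPC and NAPSA had no value without _x_at and _s_at sets, and NKX2-1, NAPSA and FOXA1 none under the 60th percentile floor. The median percentile of the 10 genes was 47.75 at 6 h and 48.25 at 0 h among the brightest sets of all genes, in place of 61.4 and 62.1 among all sets, by the narrower comparison alone. The number of arrays limits the precision. No paired analysis was possible because each time has 1 array.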

Other observations

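Other regulators of lung epithelium ranged from bright signals to signals under the floor. SOX2, a factor of the airway and of stem cells, read 13550 at 6 h and 11839 at 0 h, the 99.6 and 99.5 percentiles, and its 3 measured probe sets differed by 0.19 to 0.39 on the log2 scale. The stress-responsive factor CEBPB read 2849 and 2154, the Hippo effector YAP1 2106 and 1725 and its partner TEAD1 1603 and 1710. Of 22 such regulators 16 were measured, against 64.1% of all named genes. Of the 16, 12 were higher and 4 lower at 6 h (54.3% and 45.7% of all measured genes), with a median difference of 0.24. ETV5, an ETS factor active in type II cells in mouse, was the 1 of these 16 past 1.5-fold (381 and 202), against 0.932% of all measured genes. Its 4 probe sets lay between 0.14 and 0.92, the lowest being only a bound, since 230102_at was under the floor at 0 h (28.4). WWTR1, the paralog of YAP1, was at 0.56. SOX9, of the distal lung tip, and GRHL2, of epithelial junctions, were under the floor at 12.7 and 21.3 (brightest set) and at 15.1 and 14.6.

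Lists for other lineages were also dim, each with a smaller share measured than the 64.1% of all named genes. Of 9 airway genes 3 were measured, at most 69.2 and 80.1 (the mucin MUC5AC). Of 12 gastrointestinal genes 5 were measured, with the intestinal factor CDX1 at 91.0 and 114 and the trefoil peptide TFF3 at 63.9 and 42.4. Of 5 neuroendocrine genes 2 were measured, SYP at 81.1 and 91.9 and CHGA at 66.8 and 69.4. With values floored, 0 of these 10 measured genes reached 1.5-fold, against 0.932% of all measured genes, but TFF3 was under the floor at 0 h and has only a bound, at least 1.41-fold higher at 6 h. FOXJ1 and CTSE, under the floor at 6 h, likewise have only bounds.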
